A study of Mus musculus with 9 samples.

Results

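The genes described here are 39 regulators of chromatin and DNA methylation, of 18193 genes that the arrays measured through a probe set with 1 gene symbol. The list of genes was chosen with earlier results of these data known, and all 39 were found on the array. Tcerg1l, Tet1 and Jmjd1c had already been listed by the study from its forelimb arrays. The share of the 39 that was called is therefore not that of a list chosen without these data. They fall into 6 classes by what their proteins do: 6 act on DNA methylation, 6 are deacetylases, 9 are demethylases or close relatives, 5 are Polycomb proteins, 8 remodel nucleosomes or assist transcription, and 5 write or read other histone marks. The probe set with 1 symbol and the highest mean over all 9 arrays stands for each gene.

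RNA came from forelimb buds of mouse embryos at E10.5, on a mixed C57 BL6/DBA2 background, and was measured on 9 Affymetrix mouse arrays, 3 for each of 3 groups of sorted cells. PAX3-FKHR GFP+ cells came from Pax3PAX3-FKHR/GFP embryos, in which 1 Pax3 allele encodes GFP and the other the fusion of Pax3 to the activation domain of the forkhead factor FKHR. Control GFP+ cells came from Pax3GFP/+ embryos, which keep 1 normal Pax3 allele. All GFP+ cells therefore carry 1 Pax3 allele that encodes GFP and no Pax3. The fusion allele is conditional and was turned on by Cre from a PGK-Cre transgene carried by the dams, a transgene that is active in all tissues, and Pax3 regulation then limits where the fusion is made. The genotype of the GFP- cells could not be settled, since the labels leave it out and the methods name both Pax3GFP/+ and Pax3+/+ embryos. Limb buds of many embryos were pooled by genotype before sorting, and the methods describe the 3 samples of each group as biological replicates.

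Chromatin regulators add, remove or read chemical marks on histones and DNA, or slide nucleosomes, and so set how open a gene is to transcription factors. DNA methyltransferases silence genes by methylating cytosines at CG sites, and Tet enzymes oxidise that methyl group as a step to its removal. Polycomb complexes and histone deacetylases mostly repress, acetyltransferases and BAF remodelling complexes mostly activate, and histone demethylases may do either. In the muscle lineage, deacetylases and Polycomb proteins are known to hold back muscle genes in progenitors, and the BAF subunit Smarcd3 is known to help muscle factors reach their targets.

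CG sites are the substrate of the first class and mark many promoters, so the promoters of the 39 genes were read in the RefSeq promoter table (GRCm38.p6), taking the 250 bases before the transcription start and, for genes with several starts, the window with the most CG. The table held 33 of the 39 genes, and Hdac1, Hdac3, Hdac10, Kdm5a, Kdm6b and Carm1 were not matched. A median of 23 CG sites stood in these windows (range 6 to 51), against a median of 11 over 17492 protein-coding genes read in the same way, and 32 of the 33 lay above that median. The windows of the 2 genes that were called higher with PAX3-FKHR than in GFP- cells are given with each CG in capitals.
Tcerg1l, chr7:138397731-138397980, minus strand, 23 CG: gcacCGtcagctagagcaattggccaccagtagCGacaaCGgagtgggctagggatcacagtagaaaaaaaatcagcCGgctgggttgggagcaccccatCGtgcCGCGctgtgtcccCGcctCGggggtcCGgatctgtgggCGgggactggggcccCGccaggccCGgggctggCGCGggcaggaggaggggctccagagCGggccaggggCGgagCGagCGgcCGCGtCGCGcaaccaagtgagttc
Smarcd3, chr5:24602003-24602252, minus strand, 38 CG: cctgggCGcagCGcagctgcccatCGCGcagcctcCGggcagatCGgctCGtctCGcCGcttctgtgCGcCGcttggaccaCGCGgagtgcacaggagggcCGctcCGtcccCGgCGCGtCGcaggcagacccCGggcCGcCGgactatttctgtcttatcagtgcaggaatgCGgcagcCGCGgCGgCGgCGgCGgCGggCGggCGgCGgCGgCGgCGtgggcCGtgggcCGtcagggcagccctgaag

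The Tcerg1l window ends just before the first base of the annotated gene, whereas the Smarcd3 start used lies 22454 bases inside the annotated gene, at a later start. The array does not tell which start was used. The letters GTCAC, part of the sequence that the paired domain of Pax3 is known to bind, and ATTA, the core bound by its homeodomain, were searched on both strands. GTCAC stood in 15 of the 33 windows and in 39.8% of all 32851 windows in the table, and ATTA in 8 of the 33 windows and in 54.9% of all. The 33 are each gene's window with the most CG, whereas the 32851 were not chosen by CG, so these shares are not directly comparable. Neither GTCAC nor ATTA occurred in the windows of Tcerg1l, Smarcd3, Prdm16 or Tet1, which says only that these letters are not in these 250 bases.

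Myogenic progenitor markers were higher in the GFP+ cells, and so were most of the neural crest and neuron markers. All 11 measured markers of myogenic progenitors were higher in both GFP+ groups than in GFP- cells, and their mean level lay between 8.42 and 8.91 on the log2 scale on the GFP+ arrays and between 4.83 and 5.19 on the GFP- arrays. Of 12 limb mesenchyme markers, 10 were lower in control GFP+ cells and 11 in PAX3-FKHR GFP+ cells than in GFP- cells. Of 11 neural crest and neuron markers, 7 were higher in each GFP+ group, and the sets differed. Foxd3 was called in control GFP+ cells only, and Erbb3 in PAX3-FKHR GFP+ cells only. Of 12 limb ectoderm markers 3 were lower in each GFP+ group, of 11 blood and macrophage markers 1 and 2 were lower in control and PAX3-FKHR GFP+ cells, and of 12 endothelial markers none was called. Between the GFP+ groups, Pax3 itself was lower with PAX3-FKHR (log2 fold change -2.59, adjusted p = 0.00363), and of the other markers of the 6 cell types Pax7 and Fgf8 were higher. Within the GFP- group, some blood and ectoderm markers were uneven. On GFP- replicates 1, 2 and 3, Hba-x was at 6.76, 12.88 and 13.48 and Alas2 at 4.81, 9.48 and 11.40. The ectoderm gene Trp63 was at 5.77, 6.84 and 8.09 on them. Hba-x also ranged from 6.30 to 10.30 in control GFP+ cells. Such spread makes a call less likely, and its part in the comparisons with GFP- cells was not tested. By array weight, 1 array stood apart. Control GFP+ replicate 3 had an estimated array weight of 0.236, where the others ranged up to 2.69, and it was the lowest of all 9 arrays on 11 of the 39 genes (28.2%, against 18% of all genes). Over all genes, GFP- replicates 1 and 3 were lowest slightly more often (18.2% and 20.8%). What set control GFP+ replicate 3 apart over all genes was being the highest array most often (26.9%). For the genes nearest the threshold, values without this array are given beside the others.

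Values below are RMA values on the log2 scale, in which a difference of 1 is a doubling, and they are compared only within a probe set. To be called, a gene needed a log2 fold change of at least 0.5 in size and, in the limma fit over all 45037 probe sets, a Benjamini-Hochberg adjusted p under 0.05. In the question of what PAX3-FKHR changes in the GFP+ cells, the large majority of the 39 genes did not pass this test. Tcerg1l was called higher and Prdm16 lower, so that 1 gene of 39 was called in each direction, where 0.61% of all genes were called higher and 0.203% lower. In all, 23 of the 39 log2 fold changes lay above 0 and 16 below, with a median of 0.04 (all genes: -0.03). The 95% interval of the log2 fold change lay within 1 of 0 for 35 of the 39 genes, and for 16964 of all 18193 genes. It lay within 0.5 of 0, the size needed for a call, for 14 of the 39 and 10591 of all 18193. For the uncalled genes outside these 14, a change of that size is not excluded. In sorted RNA, fewer cells that express a gene and less RNA per cell cannot be told apart.

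**Figure D1:**
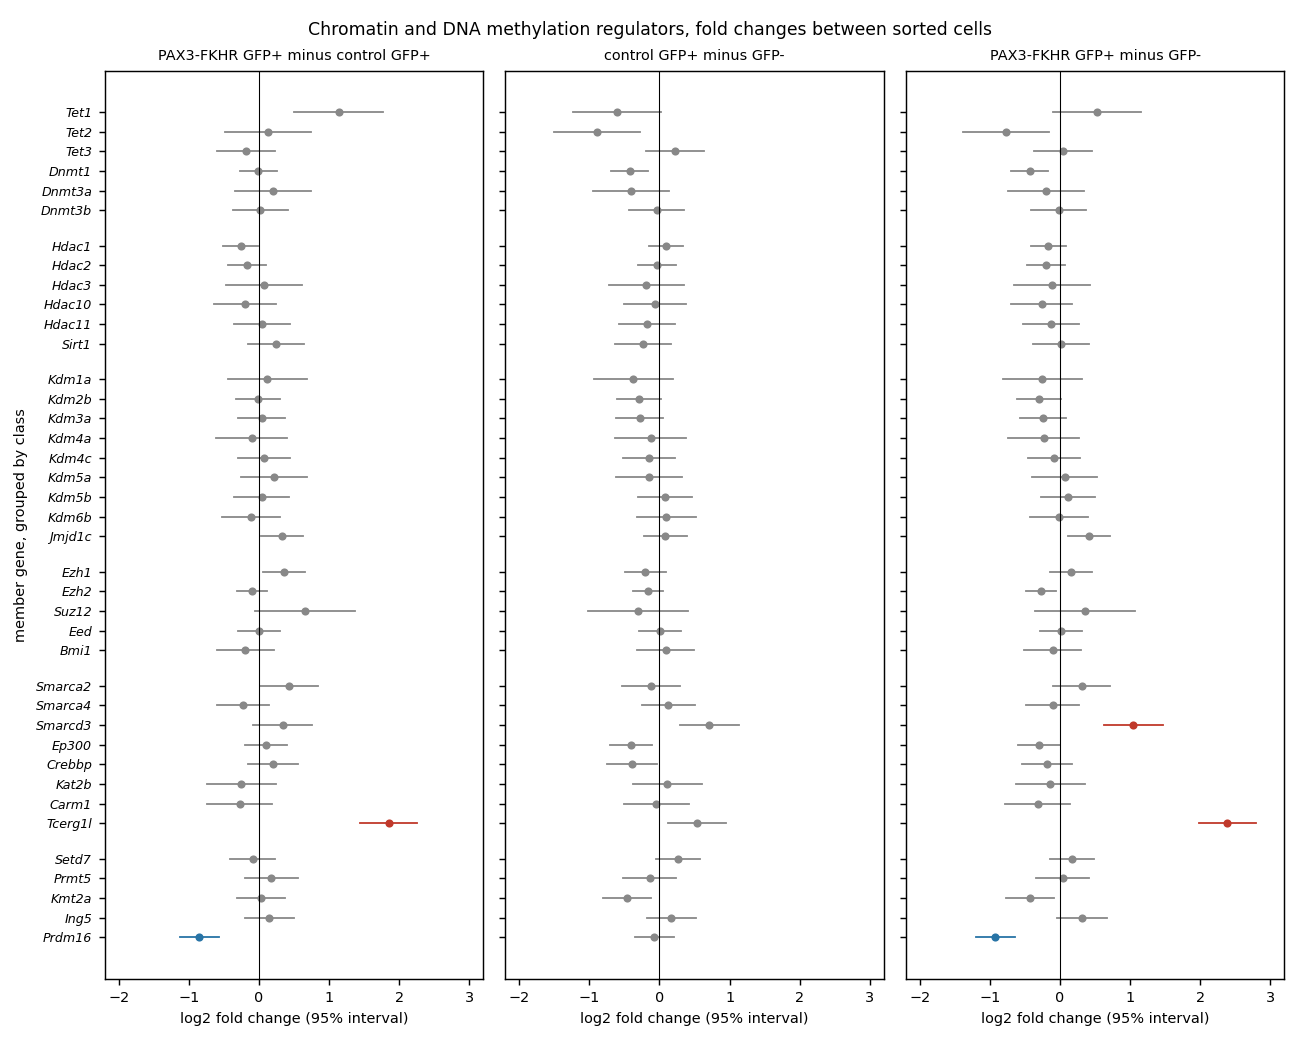
Log2 fold changes of the 39 genes (points) with 95% intervals (lines) in the 3 comparisons, in 1 panel each, with genes grouped by class. Red points were called higher and blue points lower; Tcerg1l and Prdm16 stand out in the comparison of the GFP+ groups, and Smarcd3 joins them against GFP- cells.

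Tcerg1l, whose function is little known, had the largest change of the 39 genes. Its values were 8.17, 8.60 and 8.32 on the PAX3-FKHR GFP+ arrays, 6.70, 6.68 and 6.16 on the control GFP+ arrays, and 6.11, 5.85 and 5.98 on the GFP- arrays. The PAX3-FKHR arrays stood well clear of the others, and the control arrays just above the GFP- arrays. Tcerg1l rose with PAX3-FKHR by 1.85 on the log2 scale, 3.61-fold (SE 0.18, 95% interval 1.45 to 2.26, adjusted p = 0.00163). A second probe set rose as well, by 0.82 (SE 0.11, adjusted p = 0.00923), at values that all lie below 5.11, the median of all values on the arrays. The study picked Tcerg1l from these same arrays, so its direction here is not independent evidence. The study also lists Tcerg1l as higher with PAX3-FKHR in somites, from other arrays that were not used here.

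Prdm16, a zinc finger protein of the PR domain family known for steering precursor cells toward brown fat and away from muscle, went the other way. Its values were 9.16, 9.06 and 9.01 on the PAX3-FKHR GFP+ arrays, 9.79, 9.91 and 10.08 on the control GFP+ arrays, and 10.11, 9.89 and 9.998 on the GFP- arrays. Control GFP+ and GFP- arrays overlapped, and all PAX3-FKHR arrays lay below both. Prdm16 fell by 0.85 on the log2 scale, to 0.555 of its control level (SE 0.13, 95% interval -1.13 to -0.57, adjusted p = 0.0159). Its fold change varied little and its call did not hold throughout. Over 18 other settings the log2 fold change ran from -0.92 to -0.76. With the replicate number as a block the adjusted p was 0.0517 over 9 arrays and 0.0382 over the 6 arrays compared. It was lost without any one of the PAX3-FKHR GFP+ replicates (adjusted p = 0.0559, 0.093 and 0.0756 without replicates 1, 2 and 3) and without control GFP+ replicate 2 (adjusted p = 0.0553), and held without control GFP+ replicate 3 (log2 fold change -0.77, adjusted p = 0.0331).

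**Figure D2:**
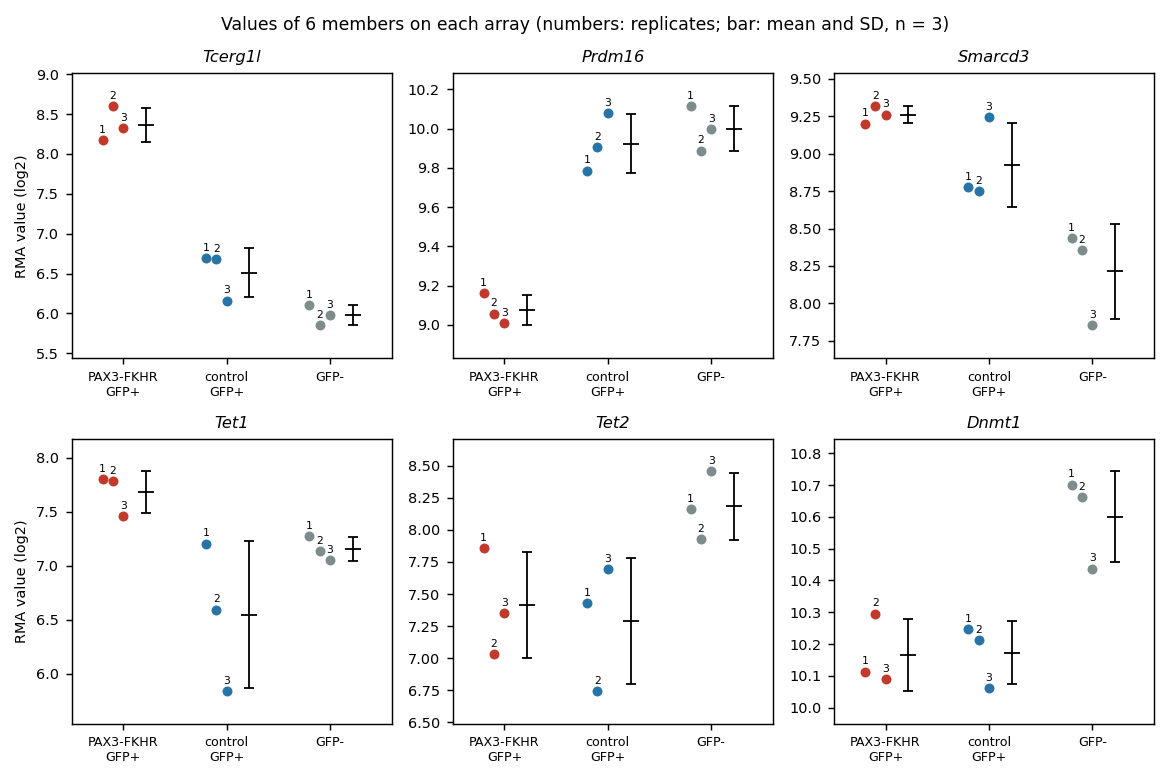
RMA values (log2) of 6 genes on each of the 9 arrays, with replicate numbers beside the points and the mean and SD of each group (n = 3) to their right; each panel has its own axis. PAX3-FKHR GFP+ arrays lie above all others for Tcerg1l and Tet1 and below all others for Prdm16, and GFP- arrays lie above all others for Tet2 and Dnmt1.

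The Tet and Dnmt genes had no call between the GFP+ groups. Tet1, which begins the removal of DNA methylation, came closest. It was measured at 7.80, 7.78 and 7.46 with PAX3-FKHR, at 7.21, 6.59 and 5.84 in control GFP+ cells, and at 7.28, 7.14 and 7.05 in GFP- cells. The PAX3-FKHR arrays lay above all others, but the control arrays were widely spread (SD 0.68, n = 3, against 0.19 with PAX3-FKHR). Its log2 fold change of 1.14 (SE 0.28, 95% interval 0.50 to 1.77) had an adjusted p of 0.196. Without control GFP+ replicate 3, the lowest of them, the log2 fold change was 0.78 (adjusted p = 0.253), and without control GFP+ replicate 1, the highest, it was 1.46 and was called (adjusted p = 0.0485). The local pooled error test, rebuilt from the study's description, called it too (log2 fold change 1.19, adjusted p = 0.0134). Tet1 is another gene that the study picked from these arrays.

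The other genes of this class differed little. Tet2, a second oxidase, had a log2 fold change of 0.12 (95% interval -0.49 to 0.74) and Tet3, the third of the family, -0.18 (-0.60 to 0.23). Dnmt1 copies methylation to the new strand after replication, and its log2 fold change was -0.01 with an interval of -0.27 to 0.26. Dnmt3a and Dnmt3b, which lay down new methylation, had log2 fold changes of 0.20 (-0.34 to 0.74) and 0.02 (-0.38 to 0.41).

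Among the deacetylases, Hdac1, a catalytic subunit of the main corepressor complexes, was measured at 9.40, 9.38 and 9.37 with PAX3-FKHR and at 9.58, 9.75 and 9.62 in control cells. These groups did not overlap, yet the difference was small, with a log2 fold change of -0.26 (SE 0.11, adjusted p = 0.67). GFP- cells, at 9.59, 9.48 and 9.59, overlapped with the control cells. Its partner Hdac2, the NCoR deacetylase Hdac3, Hdac10, Hdac11 and the NAD-dependent Sirt1 had log2 fold changes from -0.20 to 0.24. For all 6 deacetylases the 95% interval stayed within 1 of 0.

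The 9 demethylase genes had log2 fold changes from -0.12 to 0.33 between the GFP+ groups and every interval lay within 1 of 0. The highest was Jmjd1c, a relative of the histone lysine demethylase Kdm3a. It was measured at 9.56, 9.51 and 9.38 with PAX3-FKHR, at 9.19, 9.29 and 8.98 in control GFP+ cells, and at 8.91, 9.11 and 9.19 in GFP- cells. All PAX3-FKHR arrays lay above the others, with a log2 fold change of 0.33 over control (SE 0.14, adjusted p = 0.644). The remaining 8, Kdm1a, Kdm2b, Kdm3a, Kdm4a, Kdm4c, Kdm5a, Kdm5b and Kdm6b, take methyl groups off different histone lysines and lay between -0.12 and 0.21.

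Of the Polycomb genes, Ezh1, the alternative methyltransferase of Polycomb repressive complexes that is best known from resting cells, was measured at 6.89, 6.81 and 6.65 with PAX3-FKHR. Control GFP+ arrays gave 6.41, 6.43 and 6.42 and GFP- arrays 6.70, 6.45 and 6.72, so that the control arrays lay below both other groups. The log2 fold change was 0.36 (SE 0.13, adjusted p = 0.583). Ezh2, the main methyltransferase of the complex, had a log2 fold change of -0.10 (95% interval -0.32 to 0.11), its partner Eed 0.00 (-0.30 to 0.30), and Bmi1, of the other Polycomb complex, -0.19 (-0.60 to 0.21). Suz12, a scaffold of the Ezh2 complex, was at 0.66 with the widest interval of the class (-0.05 to 1.37, adjusted p = 0.735). Its control GFP+ values were 9.98, 9.87 and 9.03, the last on replicate 3. Of the 6 probe sets of Suz12, 5 were above 0. Those next in brightness were at 0.81 (adjusted p = 0.746) and 0.73 (adjusted p = 0.679), and control replicate 3 was the lowest control array on both.

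In the remodelling and coactivator class, Smarca2, an ATPase of the BAF complexes, was measured at 8.03, 7.82 and 7.72 with PAX3-FKHR and at 7.42, 7.59 and 7.29 in control GFP+ cells. The log2 fold change was 0.42 (SE 0.19, adjusted p = 0.686), and that of the other ATPase, Smarca4, was -0.23 (95% interval -0.60 to 0.15). The acetyltransferases Ep300, Crebbp and Kat2b were at 0.10, 0.20 and -0.25, and the arginine methyltransferase Carm1 was at -0.28, none called. Among the 4 remaining writers and readers, Setd7, Prmt5, Kmt2a and Ing5 lay between -0.09 and 0.18. Ing5, a subunit of histone acetyltransferase complexes, was measured at 8.51, 8.48 and 8.20 with PAX3-FKHR and at 8.10, 8.20 and 8.44 in control cells, which overlap (log2 fold change 0.15, adjusted p = 0.866). The study lists Ing5 among genes raised by PAX3-FKHR in limbs, somites or both, without saying which.

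All PAX3-FKHR arrays lay above all control GFP+ arrays for 5 of the 39 genes, Tet1, Jmjd1c, Ezh1, Smarca2 and Tcerg1l, where the share of all genes was 5.42%. They lay below for Hdac1 and Prdm16, 2 of the 39, where the share of all genes was 8.88%. The same 7 genes were those with an unadjusted p under 0.05, where 8.37% of all genes were.

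**Figure D3:**
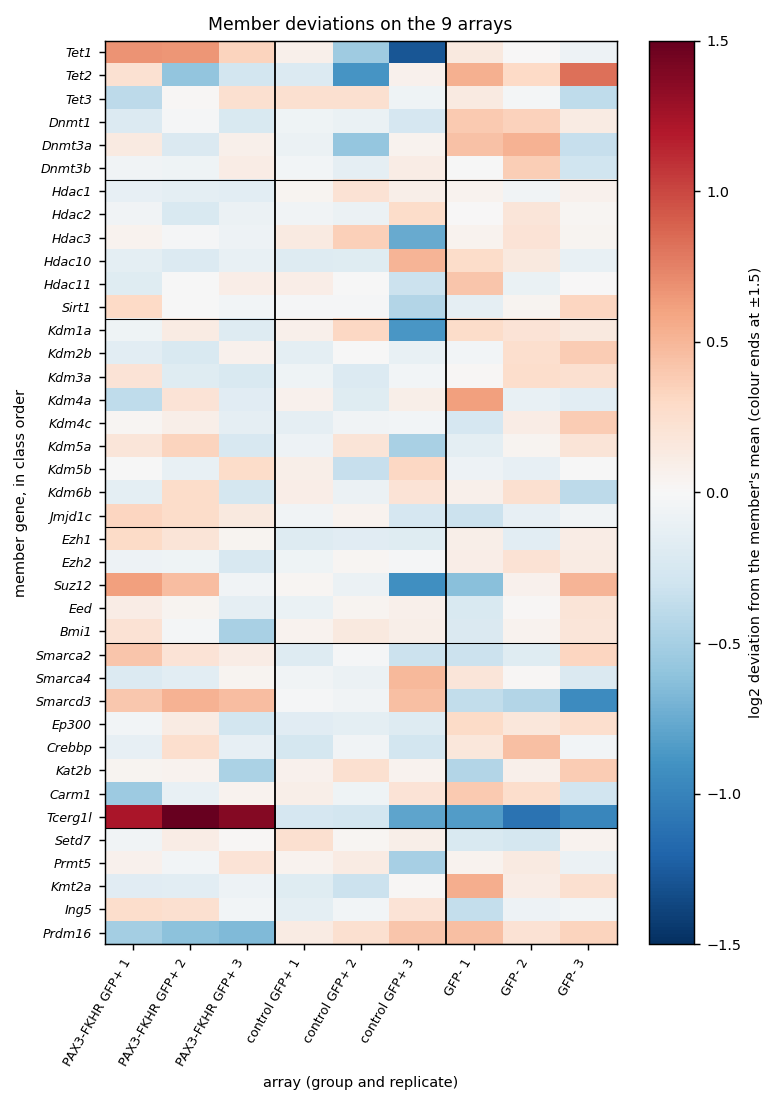
Deviation of each gene (rows, in class order) from its own mean over the 9 arrays (columns), in log2 units, with colours ending at 1.5 above and below 0. The red and blue blocks of Tcerg1l and Prdm16 follow the groups, while the dark cells of control GFP+ replicate 3 at Tet1, Suz12, Kdm1a and Hdac3 belong to 1 array.

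Control GFP+ cells were set against GFP- cells to ask how Pax3-expressing progenitors differ from the rest of the limb bud. None of the 39 genes was called in either direction by limma, where 2.79% of all genes were called higher and 1.93% lower. At an unadjusted p under 0.05 there were 7 of the 39, where 19.5% of all genes were, and the local pooled error test called none. The log2 fold changes ran from -0.89 to 0.71 with 26 of 39 below 0, and their median was -0.12 (all genes: 0.08). The intervals lay within 1 of 0 for 35 genes.

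Smarcd3, the BAF subunit that is known to link remodelling to muscle and heart transcription factors, came closest. Its values were 9.20, 9.32 and 9.26 in PAX3-FKHR GFP+ cells, 8.78, 8.75 and 9.25 in control GFP+ cells, and 8.43, 8.35 and 7.85 in GFP- cells. Both GFP+ groups lay above all GFP- arrays, and they overlapped with each other through control replicate 3. Smarcd3 was 0.71 higher on the log2 scale in control GFP+ than in GFP- cells (SE 0.19, 95% interval 0.29 to 1.13, adjusted p = 0.0544), and 0.55 higher without control replicate 3 (adjusted p = 0.103). It was called under 4 of the 17 other settings, which are listed in the closing section. The difference between the GFP+ groups, 0.34 (-0.08 to 0.76), was not called.

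Tcerg1l lay above its GFP- level in control GFP+ cells by 0.53 (SE 0.18, adjusted p = 0.124), and it was called there without control replicate 3 (0.71, adjusted p = 0.0301). On the low side of the control GFP+ cells, Tet1 had a log2 fold change of -0.61 (SE 0.28, adjusted p = 0.247), and of -0.25 (adjusted p = 0.483) without control replicate 3. Tet2, singled out here after its values were seen, was measured at 7.86, 7.03 and 7.35 with PAX3-FKHR, at 7.43, 6.75 and 7.69 in control GFP+ cells, and at 8.16, 7.93 and 8.46 in GFP- cells. On this brightest probe set, all GFP- arrays lay above all GFP+ arrays. The log2 fold change was -0.89 for control GFP+ minus GFP- (95% interval -1.505 to -0.283, adjusted p = 0.0894), and -1.10 without control replicate 3 (adjusted p = 0.0512). The other probe set of Tet2 did not share this difference, and its groups overlapped. It was at -0.02 in control GFP+ cells (adjusted p = 0.969) and -0.06 with PAX3-FKHR (adjusted p = 0.887), each against GFP-.

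Dnmt1 was also highest on the GFP- arrays, by a smaller amount than the brightest probe set of Tet2. It was measured at 10.11, 10.30 and 10.09 with PAX3-FKHR, at 10.25, 10.21 and 10.06 in control GFP+ cells, and at 10.70, 10.66 and 10.44 in GFP- cells. The log2 fold change was -0.43 in control GFP+ cells (SE 0.12, adjusted p = 0.0662) and -0.43 in PAX3-FKHR GFP+ cells (SE 0.12, adjusted p = 0.0585), each against GFP-. Without control GFP+ replicate 3 the first of these was -0.37 (adjusted p = 0.106). Mki67, a marker of dividing cells, was lower in both GFP+ groups as well (log2 fold changes -0.91, adjusted p = 0.00774, and -0.63, adjusted p = 0.0358), and the 14 measured cell cycle genes moved both ways. Against GFP- cells, 1 of them was called higher and 1 lower in control GFP+ cells, and 2 higher and 3 lower in PAX3-FKHR GFP+ cells. Cdkn1a, an inhibitor of the cell cycle, was higher in both GFP+ groups (2.82, adjusted p = 9.37e-05, and 2.44, adjusted p = 0.000122). With PAX3-FKHR the inhibitor Cdkn1c was higher as well (1.22, adjusted p = 0.00197), and the replication clamp Pcna (-0.55, adjusted p = 0.00421) and the cyclin Ccnd1 (-0.81, adjusted p = 0.0453) were lower. The part of cell division in the Dnmt1 difference was not tested.

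Kmt2a, a methyltransferase of active promoters, was measured at 7.98, 7.999 and 8.08 with PAX3-FKHR, at 7.97, 7.83 and 8.17 in control GFP+ cells and at 8.70, 8.27 and 8.40 in GFP- cells. The GFP- arrays again lay highest, and the log2 fold change of control GFP+ minus GFP- was -0.46 (SE 0.15, adjusted p = 0.113), and -0.55 without control replicate 3 (adjusted p = 0.0636). The acetyltransferases Ep300 and Crebbp had log2 fold changes of -0.41 (adjusted p = 0.111) and -0.39 (adjusted p = 0.196). Sirt1, at -0.23 (95% interval -0.63 to 0.16), Kdm2b, at -0.29 (-0.60 to 0.03), and Ezh2, at -0.17 (-0.38 to 0.05), had the smallest adjusted p of their classes in this comparison, and none was called. Sirt1 was measured at 8.04, 8.04 and 7.62 in control GFP+ cells, at 7.93, 8.11 and 8.38 in GFP- cells and at 8.35, 8.06 and 8.03 with PAX3-FKHR. Kdm2b was measured at 9.65, 9.80 and 9.69 in control GFP+ cells, at 9.76, 10.06 and 10.18 in GFP- cells and at 9.64, 9.58 and 9.86 with PAX3-FKHR. The groups overlapped for both genes. Since the myogenic, mesenchyme and neural markers all differed between these groups, mixtures of cell types differed too, and their part in these values was not tested.

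PAX3-FKHR GFP+ cells against GFP- cells gave 3 calls. The comparison shares arrays with both others, so its values are not a further check of them. Tcerg1l and Smarcd3 were called higher, 2 of 39 genes where 3.9% of all genes were, and Prdm16 was called lower, 1 of 39 where 2.79% of all genes were. Tcerg1l rose by 2.39 on the log2 scale, 5.23-fold (SE 0.18, 95% interval 1.98 to 2.79, adjusted p = 4.24e-05). Smarcd3 rose by 1.05, 2.07-fold (SE 0.19, 95% interval 0.63 to 1.47, adjusted p = 0.00801). Prdm16 fell by 0.93, to 0.527 of the GFP- level (SE 0.13, 95% interval -1.21 to -0.65, adjusted p = 0.00169). These 3 calls held without each of the 6 arrays compared, left out in turn.

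Below the calls, Tet2 had a log2 fold change of -0.77 in this comparison (95% interval -1.38 to -0.16, adjusted p = 0.139) and Tet1 0.53 (-0.10 to 1.16, adjusted p = 0.343). Jmjd1c was at 0.41 (SE 0.14, adjusted p = 0.107). Ezh2 was measured at 10.89, 10.90 and 10.73 with PAX3-FKHR and at 11.06, 11.18 and 11.09 in GFP- cells, which do not overlap, with a log2 fold change of -0.27 (SE 0.10, adjusted p = 0.142). Its control GFP+ values, 10.89, 10.99 and 10.94, lay below the GFP- values as well. Hdac2, at -0.20 (-0.47 to 0.08), was the deacetylase with the smallest adjusted p. It was measured at 10.86, 10.69 and 10.82 with PAX3-FKHR, at 10.86, 10.83 and 11.18 in control GFP+ cells, and at 10.92, 11.09 and 10.94 in GFP- cells. The PAX3-FKHR arrays lay just below the GFP- arrays, and the control arrays spanned both. Over the 39 genes, 24 log2 fold changes were below 0 and the median was -0.10 (all genes: 0.05).

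Many of these genes have further probe sets, which read other parts of their transcripts. The 39 genes have 95 probe sets with 1 symbol, at most 6 a gene, and 28 genes have more than 1. For 12 of these 28 genes all probe sets lay on the same side of 0 between the GFP+ groups, and Tcerg1l was the only one of the 39 called on more than 1. All 4 probe sets of Prdm16 were lower with PAX3-FKHR. The brightest was called, and the others had log2 fold changes of -1.14 (adjusted p = 0.252), -0.98 (adjusted p = 0.159) and -0.34 (adjusted p = 0.707). Against GFP- cells the second of these was called too (-0.97, adjusted p = 0.0333).

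For Tet1, the second brightest probe set had a log2 fold change of 0.80 (adjusted p = 0.611), and the dimmest pair were at 0.11 and -0.08. The probe sets of Jmjd1c differed most. The dimmest of its 3 had a log2 fold change of 1.37 (SE 0.36, adjusted p = 0.228), with values of 7.05, 6.03 and 6.87 with PAX3-FKHR and 5.61, 4.61 and 5.63 in control GFP+ cells, and the middle one was at -0.01. This dim probe set is the one for which the study lists Jmjd1c in the forelimb. Averaged over its probe sets, Jmjd1c had a log2 fold change of 0.56 (adjusted p = 0.334).

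**Figure D4:**
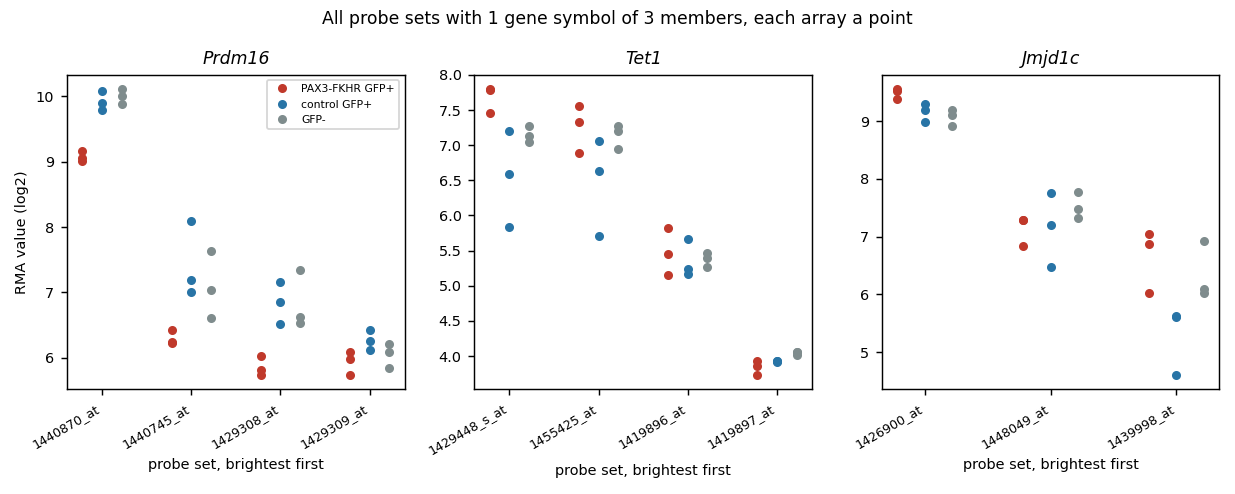
RMA values (log2) of all probe sets with 1 gene symbol of Prdm16, Tet1 and Jmjd1c, ordered by mean brightness along each horizontal axis, with each array as a point coloured by group. Levels are to be compared within a probe set; PAX3-FKHR GFP+ points (red) lie lowest on all 4 Prdm16 probe sets by their mean, and above all others on the brightest probe set of Tet1.

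A few calls were seen only on dimmer probe sets, and these were singled out after their values were seen. For Kdm5b, a demethylase that removes an active mark, the brightest probe set had log2 fold changes of 0.08 and 0.12 for control and PAX3-FKHR GFP+ cells against GFP- cells. Another of its probe sets was lower in both (-1.21, adjusted p = 0.0146, and -0.96, adjusted p = 0.0357), and a further one in PAX3-FKHR GFP+ cells (-0.87, adjusted p = 0.0276). In the control GFP+ cells a second probe set of Kmt2a was lower, relative to GFP- cells (-0.90, adjusted p = 0.0121). In the other direction, the dimmest probe set of Suz12 was higher in control GFP+ than in GFP- cells (0.76, adjusted p = 0.0276). Its values all lie below 5.11, the median of all values, and the brightest probe set of Suz12 was at -0.31 (adjusted p = 0.61).

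Beyond the 39 genes, 196 other genes of the same 6 classes were listed, of which 182 were measured. Between the GFP+ groups 1 of the 182 was called higher (0.549%) and 0 lower, and 0.61% and 0.203% of all genes were. The gene was Prdm8, a neural member of the family of Prdm16. The study also picked Prdm8 from these arrays, and lists it as higher in somites too. Here Prdm8 was measured at 5.20, 5.68 and 5.72 with PAX3-FKHR, at 4.14, 3.87 and 3.75 in control GFP+ cells, and at 3.66, 3.58 and 3.86 in GFP- cells. It rose by 1.61 on the log2 scale (SE 0.16, adjusted p = 0.00165), with the PAX3-FKHR arrays far above the others. The control GFP+ and GFP- values lie below the median of all values, 5.11.

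Against GFP- cells, 2 of the 182 genes were called higher (1.1%) and 3 lower (1.65%) in control GFP+ cells, where 2.79% and 1.93% of all genes were. In PAX3-FKHR GFP+ cells 4 were higher (2.2%) and 6 lower (3.3%), where 3.9% and 2.79% of all genes were. Gadd45g, which takes part in DNA demethylation and stress responses, rose in both (1.30, adjusted p = 0.00293, and 1.07, adjusted p = 0.00589). Kdm7a, a histone demethylase, fell in both by 0.82 (adjusted p = 0.0293) and 0.85 (adjusted p = 0.0225). Mecom, the closest relative of Prdm16, also fell in both, by 1.19 (adjusted p = 0.00653) and 1.53 (adjusted p = 0.00116). Its values were 11.02, 11.23 and 11.23 in GFP- cells, 9.75, 9.89 and 10.27 in control GFP+ cells and 10.06, 9.37 and 9.44 with PAX3-FKHR. Mecom was thus low in both GFP+ groups, whereas Prdm16 was low with PAX3-FKHR and not called in control GFP+ cells (log2 fold change -0.08 against GFP-, 95% interval -0.36 to 0.20). The arginine methyltransferase Prmt8 rose by 0.99 (adjusted p = 0.0112) and the Polycomb gene Phc3 fell by 0.61 (adjusted p = 0.0238) in control GFP+ cells, and neither was called in PAX3-FKHR GFP+ cells. Those called in PAX3-FKHR GFP+ and not in control GFP+ cells were Cxxc4 (1.01), the coactivator Ncoa1 (0.93) and Prdm8 (1.83) on the high side. On the low side they were the remodeller Chd3 (-1.03), the methyltransferase genes Kmt2e (-0.83) and Ehmt2 (-0.51), and the cytoplasmic deacetylase Hdac6 (-0.64). Whether these genes differ between the GFP+ groups is a question for the direct comparison of those groups, in which Prdm8 was the only one called. The lack of a call there does not show that the others are equal.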

How the data were processed

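The authors amplified RNA of sorted cells in 2 cycles, hybridised it to Affymetrix arrays and summarised probe intensities with RMA (version not given in the sources used here). The deposited values are log2 values per probe set, for 45101 probe sets; 64 array controls were set aside and 45037 were tested. Probe sets with absent calls, which the study removed, were kept here, since the calls are not held. GEO's platform annotation gave 1 symbol to 34945 probe sets, several to 932 and none to 9160.

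With limma 3.58.1 (R 4.3.3) 1 model was fitted to all 9 arrays (lmFit and eBayes with an intensity trend), with no covariate, and p was adjusted by Benjamini-Hochberg over all probe sets. A gene was called at an adjusted p under 0.05 and a log2 fold change of at least 0.5 (1.414-fold). The study used local pooled error tests with the same adjusted p and log2 threshold, beside which its methods print a slightly higher fold; that test was rebuilt with 100 intensity bins and a spline of 10 degrees of freedom as an alternative. Both tests were run on simulated data, where the rebuilt one made more false calls than limma. Precision is limited by having 3 arrays a group.

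The sample titles number the replicates, and equal numbers of the GFP+ groups deviated together from their group means (correlations 0.164, 0.472 and 0.287), so the number was tried as a block. GFP- arrays did not pair in this way (-0.288 to 0.155).

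The 39 genes, the 196 further chromatin genes and the marker lists were chosen with earlier results of these data known. Values on every array are given for genes called in any comparison, for Tet1, Jmjd1c, Tcerg1l and Ing5, and for the gene of each class with the smallest adjusted p in each comparison. Alternatives were another centring or normalization, no trend, array weights, the block, only the arrays compared, other thresholds, a filter on low values (above the median of all values on 3 arrays, 23557 probe sets kept, with 38 of the 39 genes), the mean of a gene's probe sets, and leaving out each array.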

Additional observations from a re-analysis of the deposited data

How the results depend on the processing

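Each of 20 named gene comparisons was taken under 17 or 18 alternative settings, which gave 347 pairs of a gene comparison and a setting. Of these pairs, 329 kept the direction and the side of the threshold, 10 lost a call, 8 gained one and 0 changed direction. Of the 39 genes, 1 was called higher with PAX3-FKHR than in control GFP+ cells, and 2 with the local pooled error test (Tet1 joining Tcerg1l); leaving out single arrays gave 1 to 2 (2 without control GFP+ replicate 1). The 1 call of a lower gene, Prdm16, became 0 with the replicate block over 9 arrays (adjusted p = 0.0517), with only the 6 arrays compared (0.0641), at a log2 fold change of at least 1, with the mean of the probe sets (0.0597) and with the local pooled error test (0.129), and was 0 to 1 when single arrays were left out. Its adjusted p ranged from 0.00467 to 0.129 over all settings, and that of Tcerg1l from 1.39e-05 to 0.0187. In control GFP+ against GFP- cells, 0 genes higher became 1 after quantile normalization again, 1 with the low value filter and 1 with the mean of the probe sets (Smarcd3 each time), 2 with array weights (Smarcd3 and Tcerg1l), and 0 to 1 without single arrays (Tcerg1l without control GFP+ replicate 3). There, 0 genes lower became 1 with the replicate block (Tet2) and 1 with the mean of the probe sets (Kmt2a). In PAX3-FKHR GFP+ against GFP- cells the 2 genes higher stayed 2 under each setting, and the 1 lower became 2 with the replicate block and with the local pooled error test (Tet2 each time), 2 with the mean of the probe sets (Kdm5b), 0 at a log2 fold change of at least 1, and 1 to 2 without single arrays (Dnmt1 without GFP- replicate 3, log2 fold change -0.52, adjusted p = 0.0455). The replicate number pairs the GFP+ groups only, and the block changed no other call of the 39 genes. The cause of these changes was not tested. Signal over background limits Tet3, which the low value filter removed.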
